A study of Arabidopsis thaliana with 4 samples.

Results

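Roots of Arabidopsis take up iron with a small set of genes, and 10 of them were followed here through 4 RNA-seq libraries of whole seedlings. The 10 genes are the regulator *FIT*, the transporters *IRT1* and *IRT2*, the ferric reductase *FRO2*, the proton pump *AHA2*, the coumarin genes *F6'H1*, *S8H* and *CYP82C4*, the exporter *ABCG37* (also called *PDR9*) and the zinc transporter *MTP3*. They were taken by their identifiers from tables of 33854 genes, and all 10 were found. The members were named by function and selected on earlier results of these same libraries, in which iron genes had been seen to differ by FPKM between *35S-COLDAIR* and Col-0, so the levels in the 2 genotypes are a description and carry no test. The wild type was Col-0, and the transgenic seedlings were *35S-COLDAIR* in the Col-0 background, in which the constitutive *35S* promoter drives the *COLDAIR* sequence from the first intron of *FLC*. Each genotype had 2 libraries, numbered replicates 1 and 2. All seedlings were 12 days old and had been raised on MS medium under 16 h of light and 8 h of dark per day at 22 °C, and no treatment of the iron supply is stated. The transgenic libraries came from a single line, *35S-COLDAIR #3*, and neither the number of seedlings in a library nor the event that a replicate number stands for is given in the sources used here.

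Arabidopsis acidifies the soil around the root, reduces ferric iron at the root surface and carries the ferrous iron into the epidermis. When iron is short, the bHLH factor FIT, together with bHLH factors of subgroup Ib, turns on the reductase and the transporter. Roots also release coumarins, phenolic compounds that mobilise ferric iron, and the last steps of their synthesis belong to the same response.

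The values are FPKM (fragments scaled by transcript length and by the number of mapped fragments), which allow levels to be compared between genes. The FPKM of a library summed to between 928299.1 and 951939.8, with 22411 to 22623 genes above 0. Steps in the lowest values gave *35S-COLDAIR* a depth of 1.09 relative to Col-0 in replicate 1 and 1.13 in replicate 2. *FLC*, the host gene of *COLDAIR*, was at 2.05 and 1.13 FPKM in wild-type replicates 1 and 2, and 43.4 and 37.6 FPKM in the matching transgenic libraries. Root tissue was present in all libraries, since all 19 root markers listed for root hair, endodermis, cap, cortex and stele were above 0 in each. In such bulk libraries, fewer root cells and less RNA per root cell cannot be told apart.

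By level, the 10 genes spread over a wide range. In Col-0, *AHA2* was highest at 215 ± 5.37 FPKM (SD, n = 2), and its mean over the 4 libraries was above 96.7% of the 20142 genes tested. *IRT1* at 12.3 ± 6.88 FPKM (SD, n = 2) and *ABCG37* at 10.6 ± 0.684 FPKM (SD, n = 2) came next, and their ranges overlapped. *F6'H1* followed at 5.72 ± 0.685 FPKM (SD, n = 2) and *FIT* at 3.83 ± 0.0066 FPKM (SD, n = 2), with no overlap between these neighbours. *FRO2* at 2.75 ± 1.44, *MTP3* at 2.58 ± 0.599 and *CYP82C4* at 1.65 ± 1.36 FPKM (SD, n = 2 each) had overlapping ranges. *IRT2*, at 1.15 ± 0.41 FPKM (SD, n = 2), lay above only 6.15% of tested genes, and *S8H* was close to absent. The order was the same in *35S-COLDAIR*, apart from *ABCG37* at 11.0 ± 0.141 and *IRT1* at 8.54 ± 4.73 FPKM (SD, n = 2 each), which changed places.

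**Figure D1:**
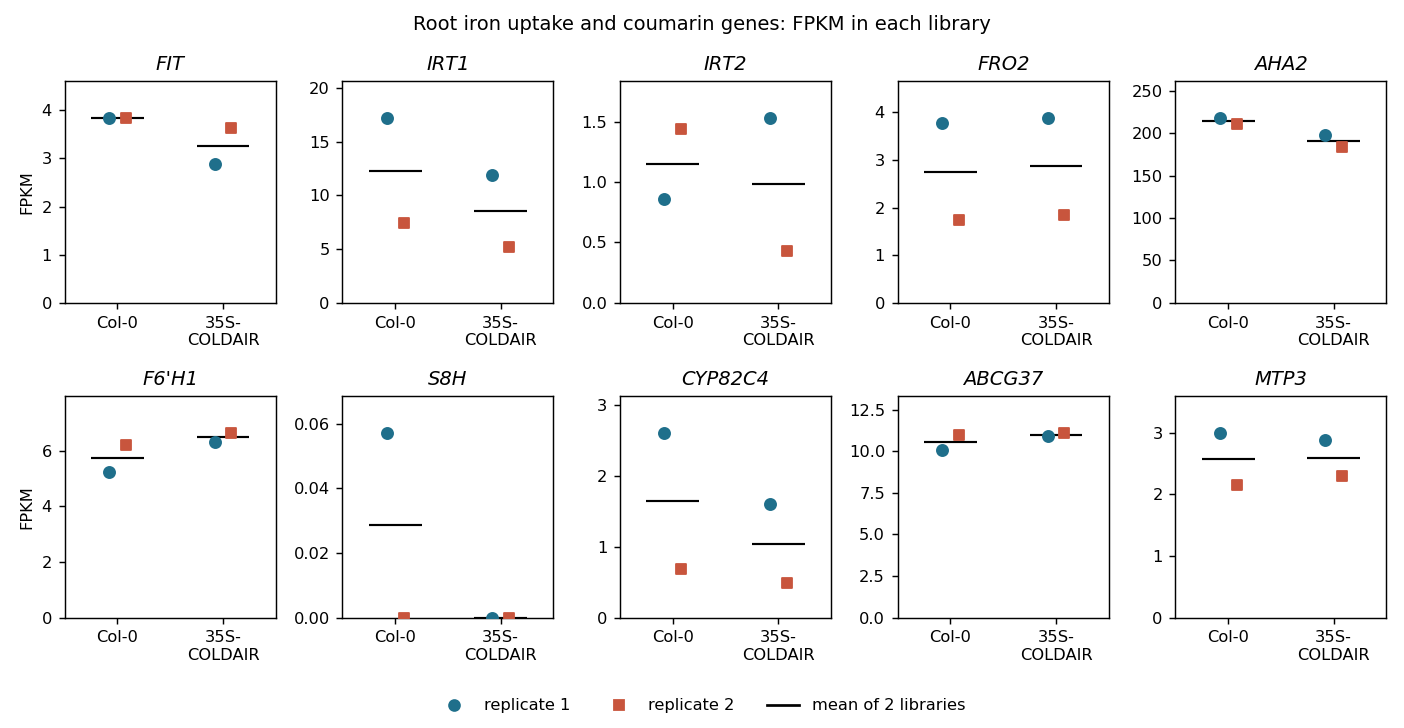
FPKM of the 10 root iron uptake and coumarin genes in each library, with a linear axis from 0 for each gene. Circles are replicate 1, squares are replicate 2 and black lines are the mean of the 2 libraries of a genotype. *IRT1*, *FRO2*, *CYP82C4* and *MTP3* lie lower in both replicate 2 libraries than in both replicate 1 libraries, while *FIT* and *AHA2* lie lower in both *35S-COLDAIR* libraries than in both Col-0 libraries.

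The regulator *FIT* (AT2G28160, chromosome 2 of TAIR10.1 from 12004658 to 12006276, plus strand) encodes the bHLH factor on which the root response depends. It was at 3.84 and 3.83 FPKM in wild-type replicates 1 and 2, with 2.88 and 3.64 FPKM in transgenic replicates 1 and 2. Both transgenic libraries were below both wild-type libraries, but replicate 2 lay close to them. The difference of *35S-COLDAIR* from Col-0 on the log2(FPKM + 1) scale was -0.19 (standard error 0.143), with -0.32 in replicate 1 and -0.06 in replicate 2. Most of the small difference thus came from replicate 1. By FPKM and transcript length, an estimated 88 and 90 fragments lay behind the wild-type values, and 72 and 98 behind the transgenic values.

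*IRT1* (AT4G19690, chromosome 4 from 10707344 to 10709015, plus strand) encodes the main ferrous iron transporter of the root epidermis. Its level in Col-0 was 17.2 FPKM for replicate 1 and 7.43 FPKM for replicate 2, and in *35S-COLDAIR* 11.9 FPKM for replicate 1 and 5.19 FPKM for replicate 2. The genotypes overlapped, since the transgenic replicate 1 exceeded the wild-type replicate 2, whereas both replicate 2 libraries were below both replicate 1 libraries. Within a replicate number the genotype ratio hardly moved, with a *35S-COLDAIR* level of 0.693 times that of Col-0 in replicate 1 and 0.698 times in replicate 2. The ratio of replicate 1 to replicate 2 was as steady, at 2.31 in Col-0 and 2.29 in *35S-COLDAIR*. The log2 difference between the genotypes was -0.47, with a standard error of 0.519 when the 4 libraries were compared freely and 0.0946 when they were compared within replicate numbers.

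*FRO2* (AT1G01580, chromosome 1 from 208995 to 213082, plus strand) encodes the ferric chelate reductase that works ahead of IRT1. It was at 3.77 and 1.74 FPKM in wild-type replicates 1 and 2, against 3.88 and 1.85 FPKM in the transgenic pair. The replicate 1 level was thus 2.17 times that of replicate 2 in Col-0 and 2.09 times in *35S-COLDAIR*, while the genotypes lay side by side with a log2 difference of 0.05 (standard error 0.391). *FRO2* shared the replicate pattern of *IRT1* without its genotype ratio.

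*IRT2* (AT4G19680, chromosome 4 from 10703348 to 10704838, plus strand), a transporter of internal membranes, is the neighbour of *IRT1* and ends 2505 bases before it begins. It was at 0.863 and 1.44 FPKM in wild-type replicates 1 and 2, and 1.53 and 0.433 FPKM in the matching transgenic libraries. It followed neither the genotype nor the replicate number, with a log2 difference between genotypes of 0.44 in replicate 1 and -0.77 in replicate 2. From the annotated length and the steps of the low values, these levels rest on an estimated 20, 34, 38 and 12 fragments in the order given. The coding sequences of *IRT1* and *IRT2* are 76.2% identical where aligned, with a longest shared run of 22 bases, and how fragments were divided between them is not given in the sources used here.

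The 250 bases before the annotated start are shown for *IRT1* (chr4:10707094-10707343) and *FRO2* (chr1:208745-208994), the transporter and the reductase, both lower in replicate 2 of each genotype, though *FRO2* did not pass the test between replicate numbers (adjusted p = 0.0601 from limma). They were read from the plus strand of TAIR10.1 (RefSeq), and capitals would mark a bHLH recognition core CANNTG (N is any base) or the evening element AAAATATCT, a clock-related motif, on either strand.
IRT1: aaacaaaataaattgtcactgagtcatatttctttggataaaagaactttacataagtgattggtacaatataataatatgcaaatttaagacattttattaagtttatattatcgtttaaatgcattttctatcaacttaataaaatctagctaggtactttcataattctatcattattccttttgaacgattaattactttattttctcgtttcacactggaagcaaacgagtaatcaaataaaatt
FRO2: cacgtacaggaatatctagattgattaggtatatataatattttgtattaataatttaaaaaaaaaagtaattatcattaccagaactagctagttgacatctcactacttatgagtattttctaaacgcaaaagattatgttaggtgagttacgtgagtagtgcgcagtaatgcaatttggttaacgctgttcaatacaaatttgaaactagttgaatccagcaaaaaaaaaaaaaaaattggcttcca
Neither stretch holds a match to either motif, so all letters are in lower case. Among 27443 protein-coding genes, 55.3% have at least 1 CANNTG in this window, 6.49% have the form CACGTG and 2.36% have the evening element. A window without a match tells only that these letters are not in it.

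*AHA2* (AT4G30190, chromosome 4 from 14770395 to 14776247, minus strand) encodes a plasma membrane proton pump that is active in roots and not confined to iron shortage. It was at 218 and 211 FPKM in wild-type replicates 1 and 2, with 198 and 184 FPKM in transgenic replicates 1 and 2. Both transgenic libraries were below both wild-type libraries, with ratios of 0.906 in replicate 1 and 0.874 in replicate 2. The log2 difference was -0.17 (standard error 0.0728). Its near relative *AHA1* (AT2G18960) was at 213 and 202 FPKM in wild-type replicates 1 and 2, with 213 and 203 FPKM in transgenic replicates 1 and 2, so its genotypes lay side by side. Their coding sequences are 89.2% identical where aligned, with a longest shared run of 59 bases, and how fragments were divided between them is not given in the sources used here. Of 10 other plasma membrane proton pump genes, 8 were tested, with log2 differences between -0.26 and 0.04, a median of -0.01 and 0 called in either direction by limma, and 0 had an unadjusted p under 0.05 with or without the block.

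Coumarin synthesis begins with F6'H1, which makes the precursor of scopoletin, and continues with S8H, which makes fraxetin, and with CYP82C4, which makes sideretin. *F6'H1* (AT3G13610, chromosome 3 from 4449259 to 4450811, plus strand) was at 5.24 and 6.21 FPKM in wild-type replicates 1 and 2, against 6.32 and 6.64 FPKM in the transgenic pair. It was the single gene of the list with both transgenic libraries above both wild-type libraries, by a log2 difference of 0.16 (standard error 0.124). *S8H* (AT3G12900, chromosome 3 from 4104463 to 4106341, plus strand) was at 0.0572 FPKM in replicate 1 of Col-0, which is about 1 fragment, and listed at 0 in the other 3 libraries. At this depth 3 fragments would give 0.172 FPKM, so every *S8H* value lay under that limit and the genotypes could not be compared.

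*CYP82C4* (AT4G31940, chromosome 4 from 15451988 to 15454224, plus strand) was at 2.61 and 0.691 FPKM in wild-type replicates 1 and 2, and 1.60 and 0.489 FPKM in the matching transgenic libraries. Both replicate 2 libraries were below both replicate 1 libraries, by 3.78 times in Col-0 and 3.27 times in *35S-COLDAIR*. The genotypes overlapped, although the *35S-COLDAIR* level was lower within each replicate number, at 0.612 times Col-0 in replicate 1 and 0.707 times in replicate 2. The log2 difference between the genotypes was -0.33 (standard error 0.476). An estimated 82 and 22 fragments lay behind the wild-type values, and 54 and 18 behind the transgenic values. Its closest relative compared here, AT4G31950, is 92.7% identical in coding sequence with a longest shared run of 97 bases, and was at 0.232 FPKM or below in all 4 libraries.

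The same windows are shown for *CYP82C4* (chr4:15451738-15451987), which was also lower in both replicate 2 libraries but did not pass the test between replicate numbers (adjusted p = 0.0754 from limma), and for *F6'H1* (chr3:4449009-4449258), which was not lower there, both on the plus strand of TAIR10.1 (RefSeq) with capitals as above.
CYP82C4: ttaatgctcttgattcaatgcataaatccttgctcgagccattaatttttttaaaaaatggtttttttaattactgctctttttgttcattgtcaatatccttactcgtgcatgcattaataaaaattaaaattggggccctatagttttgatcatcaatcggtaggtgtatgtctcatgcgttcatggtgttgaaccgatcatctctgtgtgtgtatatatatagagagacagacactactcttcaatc
F6'H1: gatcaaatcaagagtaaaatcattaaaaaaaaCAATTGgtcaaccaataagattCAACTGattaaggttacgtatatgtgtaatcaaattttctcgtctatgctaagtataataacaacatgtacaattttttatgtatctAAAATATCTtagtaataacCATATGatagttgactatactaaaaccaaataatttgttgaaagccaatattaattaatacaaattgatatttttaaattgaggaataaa
*CYP82C4* has no match, and *F6'H1* has 3 CANNTG cores, a number reached by 5.69% of the promoters, and 1 evening element. Over the other genes, the CANNTG core was found once before *FIT*, *S8H* and *ABCG37*, 2 times before *MTP3*, and not before *IRT2* or *AHA2*, and the evening element was found before *AHA2*. None of the 10 windows holds CACGTG, and the window of *MTP3* overlaps the gene AT3G58800.

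*ABCG37* (AT3G53480, chromosome 3 from 19825267 to 19831880, plus strand) encodes the exporter that releases coumarins from the root. It was at 10.1 and 11.0 FPKM in wild-type replicates 1 and 2, with 10.9 and 11.1 FPKM in transgenic replicates 1 and 2. The ratio of the genotype means was 1.04, with a log2 difference of 0.05 (standard error 0.0977). *MTP3* (AT3G58810, chromosome 3 from 21749966 to 21752141, plus strand) encodes a transporter that stores zinc in root vacuoles, the zinc that enters along with iron. It was at 3.0 and 2.16 FPKM in wild-type replicates 1 and 2, against 2.88 and 2.30 FPKM in the transgenic pair, a log2 difference of 0.01 (standard error 0.186) between genotypes. Both replicate 2 libraries of *MTP3* were below both replicate 1 libraries, by 1.39 times in Col-0 and 1.25 times in *35S-COLDAIR*.

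Between the genotypes, then, *FIT* and *AHA2* were lower and *F6'H1* was higher in both *35S-COLDAIR* libraries. For *FIT* and *F6'H1* the nearest libraries of the 2 genotypes lay close together. *IRT1* and *CYP82C4* were lower within each replicate number, and the other tested genes lay close together or crossed over. Both transgenic libraries were below both wild-type libraries for 2 of the 9 tested members, against 14.3% of all tested genes, and above them for 1 member, against 14.8%. With limma and Benjamini-Hochberg adjustment over all 20142 genes at a threshold of 0.05, 0 of the 9 members were called, where 0.00993% of all genes were called, and 0 had an unadjusted p under 0.05, as 2.59% of all genes did. With the replicate number as a block, 0 of the 9 were called, where 0.0348% of all genes were called, and 2 had an unadjusted p under 0.05, as 7.98% of all genes did. Because the list was chosen with this contrast known, nothing is read from these counts. The median log2 difference of the members was -0.16, against 0.00 over all tested genes. With 9 tested members it is the value of 1 gene, *IRT2*, which crossed over between replicate numbers and rests on few fragments. The median changed sign when a library was left out, to 0.05 without replicate 1 of Col-0 and 0.07 without replicate 2 of *35S-COLDAIR*.

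Between the replicate numbers, the largest differences among the members were those of the transporter, the reductase and the last coumarin enzyme. Both replicate 2 libraries were below both replicate 1 libraries for *IRT1*, *FRO2*, *CYP82C4* and *MTP3*, 4 of the 9 tested members, against 24.9% of all tested genes. They were above for 1 member, *ABCG37*, against 22.4% of all tested genes. In the fit with a term for genotype, the log2 difference of replicate 2 from replicate 1 was -1.08 for *IRT1* (standard error 0.0946, adjusted p = 0.0128 from limma), and *IRT1* was lower in replicate 2 in 2 of 2 genotypes. This was 1 call among the 9 members, where 1.85% of all genes were called lower in replicate 2. The difference was -0.79 for *FRO2* (standard error 0.143, adjusted p = 0.0601 from limma) and -0.95 for *CYP82C4* (standard error 0.192, adjusted p = 0.0754 from limma), both short of the threshold. For *FIT*, *AHA2*, *F6'H1* and *ABCG37* the difference lay between -0.08 and 0.13. The adjusted p of *IRT1* from limma ranged from 0.00663 to 0.115 over the alternatives, and the call was lost without the filter on low values (0.0636), without the variance trend (0.115) and without the genotype term (0.105). The replicate difference was larger in size than the genotype difference for 6 of the 9 members and for 59.4% of all tested genes. A replicate number is not a condition of the study, and the names of the 2 tables carry the numbers the other way round from their columns, which would change the sign of these differences but not their size.

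**Figure D2:**
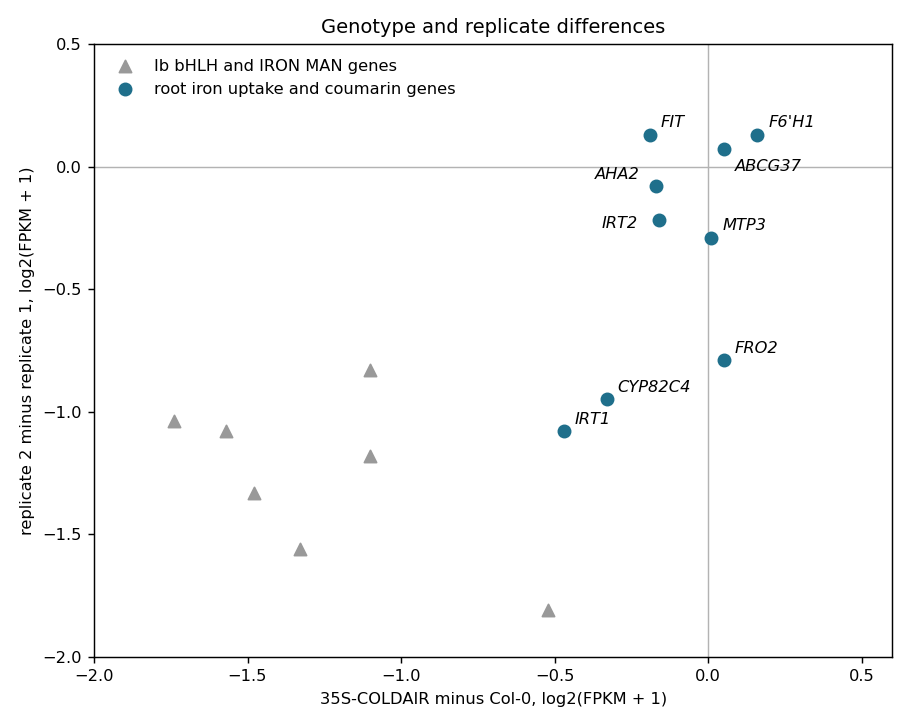
Difference between genotypes (x axis) and between replicate numbers (y axis) of the tested genes of both lists, in log2(FPKM + 1). Circles are 9 root iron uptake and coumarin genes and triangles are 7 Ib bHLH and IRON MAN genes. *IRT1*, *CYP82C4* and *FRO2* lie low on the replicate axis at -1.08, -0.95 and -0.79, with genotype differences from -0.47 to 0.05. The triangles lie between -1.74 and -0.52 on the genotype axis and between -1.81 and -0.83 on the replicate axis.

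Upstream of these genes stand the Ib bHLH factors, the partners of FIT, and the IRON MAN peptides, which signal iron shortage. All 7 were tested, and all 7 were lower in replicate 2 by limma's call with the genotype term, where 1.85% of all genes were. Under the alternatives, replicate calls were followed by gene for the members only, and their number over all genes ranged from 3 to 992. Between the genotypes, limma called 0 without the block and 2 with it, both lower in *35S-COLDAIR*, where 0.00993% and 0.0348% of all genes were called. These 2 were *BHLH100* (adjusted p = 0.033 from limma with the block) and AT1G47395 (0.034). At an unadjusted p under 0.05 were 3 without the block and 7 with it, beside 2.59% and 7.98% of all genes. The median log2 difference was -1.33, beside the -0.16 of the 10-gene list, which is the value of *IRT2*. The differences ran from -1.74 for *bHLH38* to -0.52 for AT2G30766. *bHLH38* was at 23.8 and 12.8 FPKM in wild-type replicates 1 and 2, and 7.49 and 2.59 FPKM in the matching transgenic libraries, while its partner *FIT* was between 2.88 and 3.84 FPKM throughout. AT2G30766 was at 218 and 49.3 FPKM in wild-type replicates 1 and 2, and 122 and 42.5 FPKM in the matching transgenic libraries, so its genotypes overlapped. The median of -1.33 stood beside log2 differences of -0.47 for *IRT1* and 0.05 for *FRO2*.

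Of 16 other regulators and possible partners of FIT, 12 were tested. Between genotypes limma called 0 in either direction, with or without the block (0 at an unadjusted p under 0.05 without it and 1 with it, beside 2.59% and 7.98% of all genes), and the log2 differences ran from -0.41 to 0.07 around a median of -0.01. The lowest was *BTS*, an E3 ligase that restrains the response, at 74.8 and 51.8 FPKM in wild-type replicates 1 and 2, with 53.7 and 40.7 FPKM in transgenic replicates 1 and 2. *PYE*, a bHLH factor of the iron response, was at 23.5 and 8.10 FPKM in wild-type replicates 1 and 2, against 16.2 and 8.11 FPKM in the transgenic pair. *PYE* and *BTS* were called lower in replicate 2 and *bHLH121* was called higher, where 1.85% of all genes were called lower and 2.01% higher. *MYB72*, a factor of the coumarin response, was listed at 0 in all 4 libraries, like *S8H* in 3 of them, and its relative *MYB10* was between 0.555 and 1.63 FPKM.

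The earlier steps of the phenylpropanoid pathway, which feed coumarin synthesis, were mostly more abundant than *F6'H1*, *CYP82C4* and *S8H*. Of 10 other coumarin and phenylpropanoid genes, with glucosidases and *F6'H2* among them, 9 were tested. Between genotypes limma called 0 with or without the block (0 at an unadjusted p under 0.05 in both), with log2 differences from -0.18 to 0.15. The highest were *CCoAOMT1* at a mean of 294 FPKM, *HCT* at 89.1 FPKM and *BGLU21* at 83.0 FPKM. *4CL1*, a coenzyme A ligase of the pathway, was called lower in replicate 2 by limma, where 1.85% of all genes were. It was at 81.0 and 61.7 FPKM in wild-type replicates 1 and 2, against 77.4 and 50.3 FPKM in the transgenic pair. *F6'H2* (AT1G55290), the relative of *F6'H1*, was below the filter at 0.696 FPKM or less.

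Among 30 other iron transport and chelation genes, 24 were tested and limma called 0 between genotypes with or without the block (0 at an unadjusted p under 0.05 without it and 5 with it, beside 2.59% and 7.98% of all genes). *YSL2* and *YSL3*, transporters of metals bound to nicotianamine, had the largest log2 differences at 1.10 and 0.59. *YSL2* was at 2.70 and 6.56 FPKM in wild-type replicates 1 and 2, and 13.9 and 7.66 FPKM in the matching transgenic libraries, so both transgenic libraries were higher. Called lower in replicate 2 were *OPT3*, *FRO7* and *NRAMP4*, where 1.85% of all genes were called lower. *OPT3*, a phloem iron transporter, was at 105 and 54.3 FPKM in wild-type replicates 1 and 2, and 83.4 and 51.5 FPKM in the matching transgenic libraries. The 4 ferritin genes, which store iron, had a median log2 difference of 0.15 between genotypes and 0.20 between replicate numbers, with 0 called by limma in either comparison (1 at an unadjusted p under 0.05 in each). *FER1* was at 55.4 and 74.8 FPKM in wild-type replicates 1 and 2, with 88.6 and 90.4 FPKM in transgenic replicates 1 and 2.

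**Figure D3:**
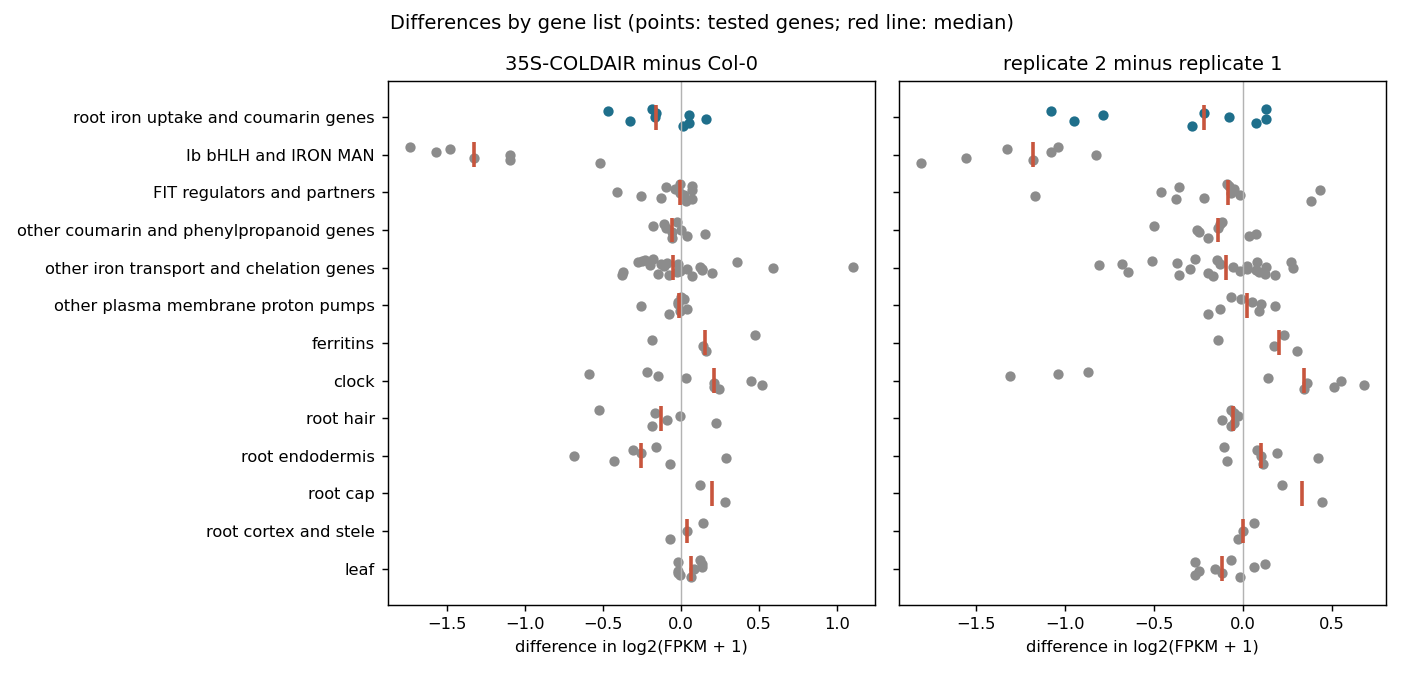
Log2(FPKM + 1) differences of the tested genes of each list between genotypes (left) and between replicate numbers (right), 1 point a gene, with the median as a red line. The median of the root iron uptake and coumarin genes lies at -0.16 on the left and -0.22 on the right, both the values of *IRT2*. That of the Ib bHLH and IRON MAN genes lies at -1.33 and -1.18.

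Root markers and clock genes were set beside the replicate and genotype differences of the iron genes. The 6 root hair markers summed to 24.6 and 29.2 FPKM in wild-type replicates 1 and 2, against 26.3 and 19.5 FPKM in the transgenic pair, and the 7 endodermis markers to 48.8, 57.0, 46.9 and 41.2 FPKM in the same order. These sums were higher in replicate 2 of Col-0 and lower in replicate 2 of *35S-COLDAIR*. The 3 root cap markers summed to 2.14, 3.09, 2.74 and 3.46 FPKM in the same order, higher in replicate 2 of both genotypes. The 3 cortex and stele markers summed to between 62.9 and 66.8 FPKM, and the 9 leaf markers to 76500 and 69900 FPKM in the wild-type pair, against 77700 and 72300 FPKM in the transgenic pair. Of the 18 root markers tested, 0 were called between replicate numbers by limma, and 1, an endodermis marker, had an unadjusted p under 0.05, as 17.9% of all genes did. Between the genotypes, 0 of the 18 were called by limma with or without the block. The endodermis markers had a median log2 difference of -0.26 between genotypes, with 6 of 7 lower in *35S-COLDAIR* and 2 at an unadjusted p under 0.05, and the root hair markers a median of -0.13, with 5 of 6 lower and 1 at an unadjusted p under 0.05, beside 2.59% of all genes. The 2 tested root cap markers had a median of 0.20 and the 3 cortex and stele markers one of 0.04. The part of root tissue in the genotype differences and in the replicate differences, that of *IRT1* included, was not tested. Of 9 clock genes, 3 were called lower in replicate 2 and 3 were called higher, where 1.85% of all genes were called lower and 2.01% higher. The morning genes *CCA1* and *PRR9* were among the lower, with *CCA1* at 51.6 and 27.8 FPKM in wild-type replicates 1 and 2, against 44.3 and 23.6 FPKM in the transgenic pair. Between genotypes, the clock genes had log2 differences from -0.59 to 0.52 around a median of 0.21, and limma called 0 with or without the block. At an unadjusted p under 0.05 were 0 without the block and 4 with it, beside 2.59% and 7.98% of all genes. The part of the sampling time or the clock in the *IRT1* level was not tested.

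The 4 values of *IRT1* were also compared with those of every gene whose mean reached 5 FPKM, by the distance between log2(FPKM + 1) values taken from each gene's own mean. Over 4 libraries and 14745 genes, the nearest were *G3Pp1* (distance 0.0487), *BBX29* (0.14), *LHY* (0.143), AT5G15950 (0.146) and *CYP71B2* (0.161). *G3Pp1*, a putative glycerol-3-phosphate permease, was at 27.0 and 12.3 FPKM in wild-type replicates 1 and 2, and 19.8 and 8.86 FPKM in the matching transgenic libraries. *LHY* is a morning gene of the clock. With 4 libraries such a likeness is a description of these values only.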

How the data were processed

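The 10 genes and the gene lists were chosen with earlier results of these data known. The authors deposited FPKM values of 33854 genes in 2 tables, each with 1 Col-0 and 1 *35S-COLDAIR* library. Reads were mapped to TAIR10 with TopHat in the paper's methods and with STAR 2.5.2b in the submitters' processing notes, and cuffdiff gave the FPKM. The annotation, the strand setting and whether the tables were normalized together are not given in the sources used here. Columns were assigned to libraries by the genotype and number in their names. TAIR10.1 supplied positions and sequences, and 31416 identifiers matched it.

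Levels were taken as log2(FPKM + 1), which understates changes of low genes, for the 20142 genes whose mean reached 0.5 FPKM. *35S-COLDAIR* was compared with Col-0 in limma 3.58.1 (R 4.3.3, eBayes with trend) across all genes, without a block, and replicate 2 with replicate 1 in the fit genotype + replicate, both with Benjamini-Hochberg adjustment at 0.05. The fits were also run on simulated data. Apart from the changes put in, those libraries were drawn independently, so a spread shared by same-numbered libraries is not covered. An exact permutation test of 2 libraries against 2 cannot go below p = 0.333. Whether replicates were separate cultures is not given, so p-values refer to these libraries only. Without the block they rest on the spread between libraries of the same genotype. The fit genotype + replicate leaves 1 residual degree of freedom, with the variance drawn toward the trend over all genes. Its p-values weigh the size of the mean replicate difference against how far that difference varied between the 2 genotypes, after the variance was drawn toward the trend. Fragments were estimated from FPKM times transcript length over the median of that product in genes at 1 fragment (60.2 and 58.5 in the wild-type libraries, 55.6 and 51.1 in the transgenic libraries), which covers counting error only. Named genes were the 10 members, up to 3 with the highest mean and 2 with the largest difference in each list, *FLC* and the 5 genes nearest *IRT1*. *PYE*, *MYB72*, *MYB10*, *F6'H2*, *OPT3*, *FRO7*, *NRAMP4*, *4CL1*, *bHLH121*, *CCA1*, *PRR9*, *AHA1* and AT4G31950 were added for their role or after their values were seen.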

Additional observations from a re-analysis of the deposited data

How the results depend on the processing

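The median genotype difference of the members kept its sign under another pseudocount, other filters, quantile normalization, median centring, no variance trend, the replicate block and the ratio of mean FPKM, a calculation chosen after seeing the data. With a library left out it ranged from -0.219 to 0.073. The number of genes called between genotypes was 2 by limma, and 7 with the replicate block, and 0 to 1 with a library left out, where 356 to 848 genes had an unadjusted p under 0.05. The labels do not say that a replicate number marks a shared culture, and the deviations of same-numbered libraries correlated at 0.374 across genes, so the block is given as an alternative. It changed no call of a member. The number called between replicate numbers was 777, and 41 without the filter, 3 without the variance trend and 135 without the genotype term. The cause was not tested. With a library left out, that fit has no residual degrees of freedom and gives no calls, and the median replicate difference of the members lay between -0.235 and -0.051. *FRO2* passed the replicate threshold with quantile normalization (adjusted p = 0.044 from limma). *IRT2* and *CYP82C4* rest on few fragments, and *S8H* on 1.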
